A study of Mus musculus with 6 samples.

Results

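The Wnt receptor Fzd10 and 5 secreted Wnt antagonists, Notum, Dkk1, Sfrp1, Sfrp2 and Frzb, were followed through single-cell transcriptomes of mouse limb buds. Fzd10 and Dkk1 were selected on their levels in apical ectodermal ridge (AER) cells of the Inv1 mutant, seen to be high for Fzd10 and low for Dkk1, and the other members because they act against Wnt ligands in the same extracellular space. The 6 members were among the 15668 genes counted in both deposited matrices. As the choice rested on AER cells of Inv1 against their controls, all values of that contrast are given as a description, and other cell types, the Dup mutant and the wild types were read beside it.

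The study compared rearrangements of the Lbx1/Fgf8 locus at stage E11.5, with 1 library per group. Hindlimbs came from embryos homozygous for a duplication (Dup) and from wild types, both of strain c57bl6.J. Hindlimbs and forelimbs came from embryos homozygous for an inversion (Inv1) and from wild types, all labelled G4 ESC, a 129sv/C57Bl6 hybrid embryonic stem cell line. Mutations were made in G4 stem cells, animals were raised from these by aggregation, and line stocks were kept by crosses that brought in C57BL/6, so the label of a strain need not mean a pure background. The number of cell clones or embryos behind a library is not stated in the sources used here. Mutants were set against wild types of matching strain and limb, which gave 3 pairs. With 1 library per group no test between groups was made, and every interval below is a 95% interval that covers counting error only.

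Wnt ligands carry a lipid and bind Frizzled receptors together with Lrp5 or Lrp6, which stabilises beta-catenin, and TCF/LEF factors then switch on target genes. Secreted antagonists act before the receptor, either by binding the ligand, by removing its lipid or by occupying the co-receptor. In the limb bud, Wnt signalling in the ectoderm is needed for the AER, the epithelial rim whose FGFs drive outgrowth, while ectodermal Wnts keep the mesenchyme below from turning into cartilage.

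The promoters of Fzd10 and Dkk1 are shown because these were the members picked for opposite levels in the Inv1 AER, and because Dkk1 is a known target of beta-catenin signalling in other tissues. Each run holds 250 bases before the start of the gene and 50 after it, from RefSeq on build GRCm38.p6, printed 5′ to 3′ on the strand of the gene. The Fzd10 window is chr5:128600856-128601155 on the plus strand and the Dkk1 window is chr19:30549447-30549746 on the minus strand. Capitals mark letters of the TCF/LEF motif or of TATAAA, the TATA box. The TCF/LEF motif was searched as CTTTGAT, which is the common form, with CTTTGTT as a second spelling, then with CTTTGAA as a further one, and with CTTTGTA as the last, each on both strands.
Fzd10: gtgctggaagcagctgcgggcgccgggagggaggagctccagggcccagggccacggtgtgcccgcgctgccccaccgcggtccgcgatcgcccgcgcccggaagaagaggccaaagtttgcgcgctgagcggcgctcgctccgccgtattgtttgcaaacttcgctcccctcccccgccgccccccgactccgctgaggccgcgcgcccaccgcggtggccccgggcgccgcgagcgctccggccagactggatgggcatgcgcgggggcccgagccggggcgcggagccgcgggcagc
Dkk1: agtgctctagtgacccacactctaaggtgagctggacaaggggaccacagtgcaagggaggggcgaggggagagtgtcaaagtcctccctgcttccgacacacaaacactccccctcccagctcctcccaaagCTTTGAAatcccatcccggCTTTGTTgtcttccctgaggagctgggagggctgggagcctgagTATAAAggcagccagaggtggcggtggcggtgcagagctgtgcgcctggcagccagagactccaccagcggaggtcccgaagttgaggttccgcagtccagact
The Dkk1 window held CTTTGAA from 117 to 111 bases before the start, CTTTGTT from 98 to 92 bases before it, and TATAAA from 54 to 49 bases before it. Among the 32851 windows of this kind in the table, 16.9% held a TCF/LEF match, 1.94% held 2 or more, and 13.6% held TATAAA. The Fzd10 window, of 77.7% G and C, held none of these letters, and neither window held TAATTA, the core of many homeodomain sites, which 5.29% of windows held. A match of letters is a description of the window and not a measured site.

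Cells with more than 2000 detected genes were kept, 24891 of 26486, at a median of 6729 to 10098 UMIs (unique molecular identifiers, each standing for 1 captured transcript) per cell. Pairs of libraries shared 2 to 13 cell barcodes, at most 0.400% of the smaller library. The AER class, which the authors named by Fgf8 and En1, held 25 cells in Dup and 16 in C57BL/6 hindlimbs, 82 in Inv1 and 33 in G4 hindlimbs, and 39 in Inv1 and 10 in G4 forelimbs. Fgf8, the main AER growth factor, read 0.00514-fold in Inv1 against G4 AER cells of the hindlimb and 0.00401-fold in the forelimb, so in Inv1 the name of the class rests on other genes. Of 10 AER markers, 9 and 10 were detected in the AER class of Dup and C57BL/6, 10 and 9 in Inv1 and G4 hindlimbs, and 10 and 8 in Inv1 and G4 forelimbs. En1 was 0.438-fold (0.305 to 0.631) in Inv1 against G4 hindlimb AER cells and 0.865-fold (0.515 to 1.53) in the forelimb. In the hindlimb pair Msx2 was 0.416-fold and Sp6 0.603-fold, while Fgf9 was 4.29-fold and Fgf4 had 205 UMIs in Inv1 and 0 in G4. Sp8, Rspo2 and Cd44 were at 0.839, 1.19 and 1.07 in that pair, with intervals that include 1. In the forelimb pair Fgf9 was 2.14-fold (1.12 to 4.58) and Fgf4 had 87 UMIs in Inv1 and 0 in G4. Msx2 and Sp6 were at 0.964 and 0.919 in the forelimb, with intervals that include 1. In both limbs AER cells of Inv1 and G4 thus shared a class name but differed in some of its markers. The 10 surface ectoderm markers summed to 2808 and 2437 counts-per-million (CPM) in Dup and C57BL/6 AER cells, 3993 and 3708 CPM in Inv1 and G4 hindlimbs, and 3755 and 2560 CPM in Inv1 and G4 forelimbs. The 16 mesenchyme markers were not absent from the AER class. They summed to 1228 CPM in Dup and 1297 CPM in C57BL/6 AER cells, 1046 CPM in Inv1 and 1055 CPM in G4 hindlimbs, and 1498 CPM in Inv1 and 2189 CPM in G4 forelimbs, which is 44.6% to 67.8% of their level in mesenchyme of the same library. Of the 16, 12 to 15 were detected per library, with Lum at 0 in 5 libraries, Fgf10 in 4 and Prrx1 at 3.72 to 96.7 CPM. The sum was uneven over the list: in G4 hindlimbs Msx1 was 401 CPM in AER cells and 150 CPM in mesenchyme, and Tbx3 182 and 27.0 CPM. Prrx1 there was 3.72 CPM in AER cells and 419 CPM in mesenchyme, and Twist1 3.72 and 258 CPM. The part of the 16 markers in the AER values was not tested.

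Fzd10, a Frizzled receptor for Wnt ligands, was the receptor of the set. The gene lies on chromosome 5 from 129106719 to 129109968 of build mm9 (ENSMUSG00000081683, plus strand), and a pseudogene model of the same name lies inside these bounds, without a row in the matrices, so reads shared with it cannot be told apart. In AER cells Fzd10 had 3 UMIs in Dup and 12 in C57BL/6 hindlimbs, 150 in Inv1 and 18 in G4 hindlimbs, and 151 in Inv1 and 7 in G4 forelimbs. Scaled to all UMIs of the class, the level was 226 CPM (191 to 265) in Inv1 and 66.9 CPM (39.6 to 106) in G4 hindlimbs, and 390 CPM (330 to 457) in Inv1 and 96.4 CPM (38.7 to 199) in G4 forelimbs. Both Inv1 libraries lay above every other library, their intervals did not overlap those of their controls, and the 3 wild types overlapped one another.

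In Inv1 over G4, the Fzd10 level of AER cells was 3.38-fold (2.06 to 5.85) in the hindlimb and 4.05-fold (1.92 to 10.2) in the forelimb. In Dup it stood at 19.2 CPM (3.96 to 56.1), against 61.0 CPM (31.5 to 107) in C57BL/6, a ratio of 0.314 (0.0569 to 1.16) whose interval includes 1. A Fzd10 UMI was found in 64.6% of Inv1 and 30.3% of G4 hindlimb AER cells, in 79.5% of Inv1 and 50% of G4 forelimb AER cells, and in 8% of Dup and 43.8% of C57BL/6 AER cells. After each cell was thinned to 4000 UMIs these shares were 57.3% of Inv1 and 15.2% of G4 hindlimb cells, 66.7% of Inv1 and 30% of G4 forelimb cells, and 4% of Dup and 31.3% of C57BL/6 cells. Immune cells, which served as background, held 0 to 3 Fzd10 UMIs a library in 0% to 9.09% of cells, at medians of 8661 to 13533 UMIs. The UMIs were spread over cells: the top AER cell held 7 of the 150 in Inv1 hindlimbs and 15 of the 151 in Inv1 forelimbs.

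The plot of AER levels by library shows Fzd10, Notum and Dkk1 beside one another.

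**Figure D1:**
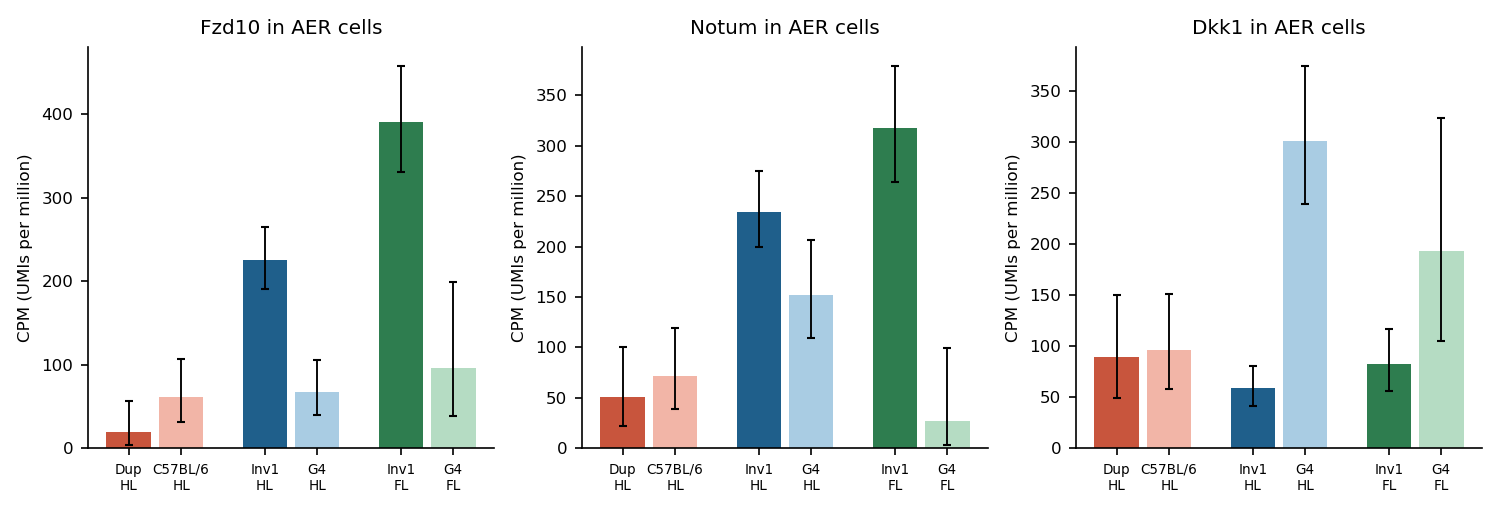
Levels of the members in AER cells (y axis, CPM) in each library (x axis; HL, hindlimb; FL, forelimb), with bars for the summed level and lines for the 95% Poisson interval. Fzd10 reached 226 and 390 CPM in the Inv1 hindlimb and forelimb, while Dkk1 stood at 58.7 and 82.6 CPM there, against 301 and 193 CPM in G4.

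Outside the ridge, Fzd10 was also read in the dorso-ventral (DV) ectoderm, the epithelium that covers the rest of the bud. There it was 41.3 CPM in Inv1 and 14.2 CPM in G4 hindlimbs, 2.91-fold (1.47 to 6.28), from 42 and 11 UMIs. In the forelimb DV ectoderm it was 126 CPM in Inv1 and 82.7 CPM in G4, 1.53-fold (0.938 to 2.59), and in the Dup pair 19.6 CPM in Dup and 21.6 CPM in C57BL/6. The hindlimb alone thus had an interval above 1. Whether the limbs differed was not tested, and the forelimb interval overlaps that of the hindlimb.

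The deposited keratinocyte class, an outer epithelial cell type, held 25 Fzd10 UMIs in Inv1 and 6 in G4 hindlimbs (2.34-fold, 0.939 to 6.99), and 21 in Inv1 and 1 in G4 forelimbs (11.1-fold, 1.78 to 459). Keratinocytes also held Fgf8, at 2 UMIs in Inv1 and 50 in G4 hindlimbs, and 0 in Inv1 and 1 in G4 forelimbs. Btrc, a gene of the rearranged locus, had 136 UMIs in Inv1 and 5 in G4 hindlimb keratinocytes (15.3-fold, 6.40 to 47.9). The Inv1 over G4 ratio of Btrc was 6.87 (1.72 to 59.7) in forelimb keratinocytes. In AER cells it was 21.5 in hindlimbs and 30.7 in forelimbs. The part of AER cells or AER RNA in the keratinocyte values was not tested. In mesenchyme Fzd10 was 14.6 CPM in Dup and 12.1 CPM in C57BL/6, 18.4 CPM in Inv1 and 18.8 CPM in G4 hindlimbs, and 26.2 CPM in Inv1 and 32.9 CPM in G4 forelimbs. The Inv1 over G4 ratio there was 0.978 (0.893 to 1.07) in the hindlimb and 0.796 (0.723 to 0.877) in the forelimb, against 1.21 (1.03 to 1.42) for Dup over C57BL/6. In both limbs the AER, DV ectoderm and keratinocyte levels of Inv1 were above those of G4 in point value, with intervals that include 1 in forelimb DV ectoderm and hindlimb keratinocytes, and the mesenchyme level was not. Muscle held 4.78 to 12.9 CPM over the 6 libraries. Most Fzd10 UMIs of a library came from mesenchyme, 75.0% to 92.6%, since that class held most cells, and AER cells gave 12.2% in Inv1 and 1.71% in G4 hindlimbs and 12.1% in Inv1 and 0.818% in G4 forelimbs.

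Endothelial cells carried Fzd10 as well, at 66.4 CPM in Inv1 and 46.8 CPM in G4 hindlimbs and 47.9 CPM in Inv1 and 78.7 CPM in G4 forelimbs, with both ratio intervals including 1. In Dup endothelium it was 13.9 CPM, against 87.5 CPM in C57BL/6, from 5 UMIs in 34 cells and 32 UMIs in 25 cells, a ratio of 0.159 (0.0485 to 0.412). Thinned to 4000 UMIs, 8.82% of Dup and 36% of C57BL/6 endothelial cells kept a UMI.

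Notum, a secreted carboxylesterase that removes the lipid from Wnt ligands and is itself a Wnt target in several tissues, was high in AER cells too (chromosome 11, 120515102 to 120522489 of mm9, minus strand, ENSMUSG00000042988). Its AER counts were 156 UMIs in Inv1 and 41 in G4 hindlimbs, 123 in Inv1 and 2 in G4 forelimbs, and 8 in Dup and 14 in C57BL/6 hindlimbs. These gave 235 CPM in Inv1 and 152 CPM in G4 hindlimbs, 318 CPM in Inv1 and 27.5 CPM in G4 forelimbs, and 51.2 CPM in Dup and 71.2 CPM in C57BL/6. The Inv1 libraries were again the highest of the 6, though in the hindlimb the intervals of Inv1 (199 to 275) and G4 (109 to 207) overlapped.

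The Notum ratio in AER cells was 1.54 (1.09 to 2.23) for the Inv1 hindlimb, 11.54 (3.13 to 96.3) for the Inv1 forelimb and 0.719 (0.261 to 1.84) for Dup. The forelimb value rests on 2 UMIs in 10 G4 cells. The G4 forelimb also read 0.181-fold of the G4 hindlimb for Notum. In the AER 74.4% of Inv1 and 72.7% of G4 hindlimb cells had a Notum UMI, 84.6% of Inv1 and 20% of G4 forelimb cells, and 28% of Dup and 50% of C57BL/6 cells. Immune cells held 0 Notum UMIs in each library.

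Cells with both Fzd10 and Notum made up 42 of 82 Inv1 and 7 of 33 G4 hindlimb AER cells, and 26 of 39 Inv1 and 1 of 10 G4 forelimb AER cells. Fzd10 was found in 68.9% of the AER cells with Notum and 52.4% of those without it in Inv1 hindlimbs, against 29.2% and 33.3% in G4 hindlimbs. The shares were 78.8% with and 83.3% without Notum in Inv1 forelimbs and 50% for both in G4 forelimbs, and 0% with and 11.1% without in Dup and 37.5% with and 50% without in C57BL/6. The Inv1 hindlimb was thus the one library of the 6 where Fzd10 was more frequent in cells with Notum. These shares follow the depth of each cell as well as its genes and are given as a description.

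In the other epithelia Notum was sparse. DV ectoderm held 14 UMIs in Inv1 and 7 in G4 hindlimbs (1.53-fold, 0.576 to 4.47), 12 in Inv1 and 0 in G4 forelimbs, and 2 in Dup and 0 in C57BL/6. Against a floor of 3 counts in the G4 library, the forelimb value was 1.87-fold higher in Inv1, and the counting interval of the ratio started at 1.30. Keratinocytes held 25 in Inv1 and 3 in G4 hindlimbs (4.69-fold, 1.43 to 24.3) and 27 in Inv1 and 0 in G4 forelimbs. By the same floor the forelimb value was 4.76-fold higher in Inv1, with a counting interval of the ratio from 3.61. The part of AER cells or AER RNA in the keratinocyte Notum values was not tested. Mesenchyme was at 4.23 CPM in Inv1 and 4.45 CPM in G4 hindlimbs, 5.76 CPM in Inv1 and 5.26 CPM in G4 forelimbs, and 2.65 CPM in Dup and 1.47 CPM in C57BL/6, the last pair 1.81-fold apart (1.17 to 2.89). Muscle of the Inv1 hindlimb was lower for Notum, 3.41 CPM against 7.53 CPM in G4 (0.454, 0.226 to 0.874).

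Dkk1, a secreted protein that binds Lrp5 and Lrp6 and, with Kremen co-receptors, takes them off the cell surface, is known in mouse limbs to restrain the AER and digit number (chromosome 19, 30620353 to 30624155 of mm9, minus strand, ENSMUSG00000024868). AER cells held 39 Dkk1 UMIs in Inv1 and 81 in G4 hindlimbs, 32 in Inv1 and 14 in G4 forelimbs, and 14 in Dup and 19 in C57BL/6. The levels were 58.7 CPM (41.7 to 80.2) in Inv1 and 301 CPM (239 to 374) in G4 hindlimbs, and 82.6 CPM (56.5 to 117) in Inv1 and 193 CPM (105 to 323) in G4 forelimbs. Dup and C57BL/6 stood at 89.6 CPM and 96.7 CPM, and their intervals overlapped over most of their length. The rearranged Lbx1/Fgf8 locus lies on chromosome 19 too, and the part of that linkage in the Dkk1 values was not tested.

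In Inv1 over G4, AER cells thus had 0.195-fold Dkk1 (0.130 to 0.289) in the hindlimb and 0.429-fold (0.222 to 0.870) in the forelimb, against 0.927-fold (0.430 to 1.95) in Dup over C57BL/6. Dkk1 UMIs were found in 29.3% of Inv1 and 78.8% of G4 hindlimb AER cells, in 33.3% of Inv1 and 50% of G4 forelimb AER cells, and in 52% of Dup and 50% of C57BL/6 AER cells. Thinned to 4000 UMIs, 18.3% of Inv1 and 57.6% of G4 hindlimb cells and 15.4% of Inv1 and 40% of G4 forelimb cells kept one. The forelimb value depended on which cells were taken as AER: with all AER and DV ectoderm cells pooled it was 0.885, and with epithelial cells gated on 2 or more of 6 AER markers it was 0.897, while the hindlimb value was 0.296 and 0.339. The G4 hindlimb, at 301 CPM, was the highest of the 6 libraries and 3.11-fold (1.87 to 5.44) above the C57BL/6 hindlimb, with which Inv1 was not paired.

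Dkk1 was scarce in other epithelia, with 0 to 3 UMIs per library in DV ectoderm and, in keratinocytes, 0 in Inv1 and 8 in G4 hindlimbs, 0 in Inv1 and 2 in G4 forelimbs, and 1 each in Dup and C57BL/6. For the hindlimb keratinocytes the ratio of Inv1 over G4 had a counting interval from 0 to 0.330. By the floor of 3 counts Inv1 was 4.74-fold lower. The part of AER cells or AER RNA in the keratinocyte Dkk1 values was not tested. Mesenchyme was the other site of the gene, at 3.51% to 6.93% of the AER level of the same library. There it had 145 UMIs in Inv1 and 534 in G4 hindlimbs, 205 in Inv1 and 185 in G4 forelimbs, and 116 in Dup and 127 in C57BL/6.

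Scaled to the class, mesenchymal Dkk1 was 2.82 CPM in Inv1 and 10.6 CPM in G4 hindlimbs, 5.73 CPM in Inv1 and 7.91 CPM in G4 forelimbs, and 3.75 CPM in Dup and 6.65 CPM in C57BL/6. All 3 ratios lay under 1: 0.266 (0.220 to 0.321) for the Inv1 hindlimb, 0.725 (0.591 to 0.889) for the Inv1 forelimb and 0.565 (0.435 to 0.732) for Dup. The share of mesenchyme cells with a Dkk1 UMI was 1.504% in Inv1 and 4.66% in G4 hindlimbs, 2.94% in Inv1 and 4.01% in G4 forelimbs, and 1.98% in Dup and 2.91% in C57BL/6. In immune cells the share was 0% to 6.90%, from 1 Dkk1 UMI in Dup, 2 in C57BL/6 and 0 in each Inv1 and G4 library. The Inv1 and G4 mesenchyme shares thus lie above the 0 of their own immune cells, but inside the range over all libraries. No presence in single cells is read from these shares. Among 14488 genes measured in the Inv1 hindlimb pair, the ratio of summed levels was 23rd from the lowest. It ranked 3121 of 14126 from the lowest in the Inv1 forelimb pair, where the median gene stood at -0.18 on the log2 scale, and 513 of 13677 in Dup.

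Mesenchyme is a mixture, and the shares of cells that passed the gates below differed between the libraries. Cells with UMIs of the autopod (hand and foot) genes Hoxa13 or Hoxd13 and none of the proximal genes Meis1 or Meis2, called Hox13 cells, were 49.0% of Dup and 24.2% of C57BL/6 mesenchyme, 59.8% of Inv1 and 42.7% of G4 hindlimb mesenchyme, and 71.5% of Inv1 and 62.1% of G4 forelimb mesenchyme. The converse Meis cells were 14.7% of Dup and 38.2% of C57BL/6, 9.55% of Inv1 and 20.2% of G4 hindlimbs, and 2.04% of Inv1 and 4.44% of G4 forelimbs. Both gates were chosen after seeing the data. Each takes 1 or more UMIs, so its share can follow depth and the level of the gating genes as well as cell type. In the authors' autopod mesenchyme class, Hox13 cells were 89.4% of Dup and 74.5% of C57BL/6 cells. In their stylopod (upper limb) mesenchyme class, Meis cells were 48.1% of Dup and 68.5% of C57BL/6 cells. The gates thus do not isolate a cell type. In a whole-class sum, fewer cells of a type and less RNA per cell cannot be told apart, so the members were also read within each gate.

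Within Hox13 cells the Dkk1 ratio was 0.282 (0.210 to 0.374) for the Inv1 hindlimb, 0.736 (0.571 to 0.949) for the Inv1 forelimb and 0.606 (0.370 to 1.01) for Dup. Within Meis cells it was 0.601 (0.386 to 0.912) for the Inv1 hindlimb and 0.297 (0.102 to 0.719) for Dup, and 0.354 for the Inv1 forelimb from only 2 and 7 UMIs. In cells that passed neither gate the Dkk1 ratio was 0.239 (0.169 to 0.331) for the Inv1 hindlimb, 1.11 (0.691 to 1.80) for the Inv1 forelimb and 0.478 (0.325 to 0.702) for Dup. In the few cells with UMIs of both gene pairs it was 0.0976 for the Inv1 hindlimb, 0.484 (0.243 to 0.924) for the Inv1 forelimb and 0.901 for Dup. The Inv1 hindlimb ratio was under 1 in each of these sets and nearest to 1 in Meis cells, whereas the Inv1 forelimb had an interval under 1 in Hox13 cells and in those with both, but not in Meis cells or in cells of neither gate.

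Fzd10 in hindlimb mesenchyme was 22.2 CPM in Inv1 and 27.1 CPM in G4 Hox13 cells, and 10.6 CPM in Inv1 and 8.94 CPM in G4 Meis cells. In the forelimb it was 29.4 CPM in Inv1 and 38.7 CPM in G4 Hox13 cells (0.759, 0.682 to 0.845), and 24.1 CPM (14.1 to 38.6) in Inv1 and 5.73 CPM (1.86 to 13.4) in G4 Meis cells. The forelimb Meis ratio of Inv1 over G4 was thus 4.21 (1.49 to 14.6), from 17 and 5 UMIs, in the opposite direction to the 0.796 of all mesenchyme.

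**Figure D2:**
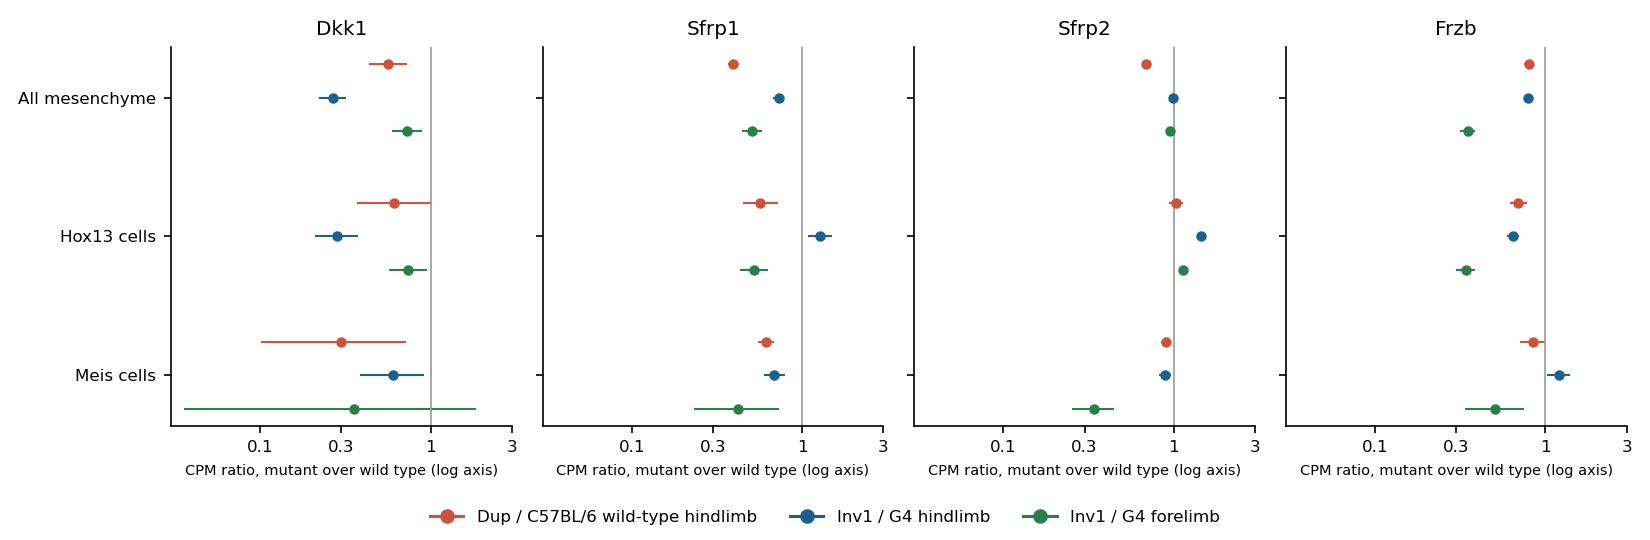
CPM ratio of mutant to its wild type (x axis, log scale) for Dkk1, Sfrp1, Sfrp2 and Frzb, a panel each, in all mesenchyme cells, Hox13 cells and Meis cells (y axis), with points for the ratio and lines for the 95% conditional interval, coloured by pair. Dkk1 in the Inv1 hindlimb stayed at 0.282 in Hox13 cells, while Sfrp2 in Dup was at 1.03 there, against 0.691 in all mesenchyme.

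The secreted Frizzled-related proteins Sfrp1, Sfrp2 and Frzb carry a Frizzled-like domain that binds Wnt ligands, and Frzb is known from cartilage of the limb skeleton. AER cells held few UMIs of these genes, except for Sfrp2 in C57BL/6, at 64.2% of its mesenchyme level there. AER cells held 0 to 5 UMIs of Sfrp1, 1 to 32 of Sfrp2 and 0 to 7 of Frzb per library, and no ratio of Sfrp1 or Frzb was measured there, which took 20 or more UMIs over a pair. The 25 Dup AER cells held 3 Sfrp2 UMIs (19.2 CPM), and the 16 C57BL/6 cells held 32 (163 CPM), all in 5 cells, a ratio of 0.118 (0.0231 to 0.377). The 16 mesenchyme markers together summed to 1228 CPM in Dup and 1297 CPM in C57BL/6 AER cells, and single markers went either way. Dup AER cells held 5 UMIs of Prrx1 and 3 of Twist1, against 19 and 23 in C57BL/6. They held 46 UMIs of Col1a2 and 49 of Msx1, against 24 and 29 in C57BL/6. Without AER cells that held 10 or more of the 16 markers, 2 Sfrp2 UMIs remained in Dup and 9 in C57BL/6. Their ratio was 0.160, from fewer than the 20 UMIs that a measured pair took, so nothing is read from it. The part of mesenchymal RNA in the Sfrp2 values of AER cells was not tested.

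Sfrp1, known for a role in bone, lies on chromosome 8 from 24521974 to 24560104 of mm9 (plus strand, ENSMUSG00000031548). Mesenchyme held 39.7 CPM in Dup and 101 CPM in C57BL/6, 23.1 CPM in Inv1 and 31.8 CPM in G4 hindlimbs, and 11.7 CPM in Inv1 and 22.9 CPM in G4 forelimbs. Each mutant was lower than its own wild type, 0.394-fold (0.366 to 0.423) for Dup, 0.728-fold (0.674 to 0.785) for the Inv1 hindlimb and 0.508-fold (0.446 to 0.578) for the Inv1 forelimb. The C57BL/6 hindlimb stood apart from the other libraries, with G4 at 0.315-fold of it. Within Hox13 cells the ratios were 0.566 for Dup, 1.28 for the Inv1 hindlimb and 0.521 for the Inv1 forelimb, and within Meis cells 0.614, 0.687 and 0.421, so the Inv1 hindlimb changed direction with the gate.

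For the Dup pair the authors gave finer classes by limb segment: stylopod (upper limb), zeugopod (lower limb) and autopod. Sfrp1 was highest in stylopod chondrocyte progenitors, at 270 CPM in Dup and 432 CPM in C57BL/6, then in stylopod mesenchyme at 118 CPM in Dup and 154 CPM in C57BL/6 and in muscle connective tissue at 34.1 CPM in Dup and 81.3 CPM in C57BL/6. It was lower in zeugopod mesenchyme, at 23.4 CPM in Dup and 40.9 CPM in C57BL/6, in autopod chondrocyte progenitors, at 14.7 CPM in Dup and 22.6 CPM in C57BL/6, and in autopod mesenchyme, at 7.87 CPM in Dup and 10.8 CPM in C57BL/6. In each of the 6 finer mesenchymal classes Dup was lower, by ratios of 0.419 to 0.765, with the interval under 1 in 4 of them. The 2 autopod classes had intervals that include 1. All 6 finer ratios were closer to 1 than the 0.394 of all mesenchyme. Fzd10 was highest in autopod mesenchyme among these classes, at 23.5 CPM in Dup and 22.5 CPM in C57BL/6.

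**Figure D3:**
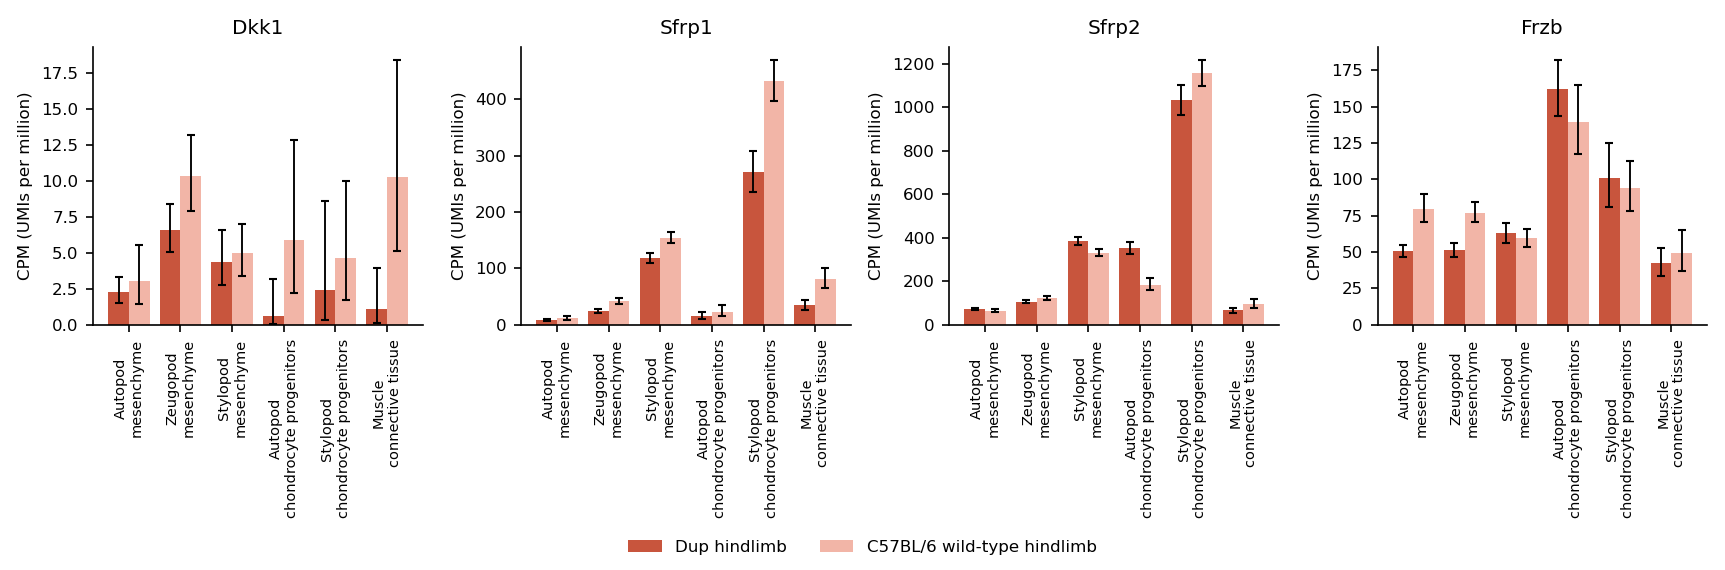
Levels (y axis, CPM) of Dkk1, Sfrp1, Sfrp2 and Frzb, a panel each, in the 6 finer mesenchymal classes (x axis) of the Dup and C57BL/6 hindlimbs, with bars for the summed level and lines for the 95% Poisson interval. Sfrp1 and Sfrp2 were highest in stylopod chondrocyte progenitors, at 270 and 1033 CPM in Dup and 432 and 1157 CPM in C57BL/6.

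In DV ectoderm Sfrp1 was 31.5 CPM in Inv1 and 9.02 CPM in G4 hindlimbs (3.49-fold, 1.51 to 9.36), 35.2 CPM in Dup and 10.8 CPM in C57BL/6 (3.26-fold, 0.781 to 29.0), and 19.3 CPM in Inv1 and 26.3 CPM in G4 forelimbs (0.734, 0.260 to 2.23). The class with the highest Sfrp1 was the small neuronal one, 4 to 17 cells a library, at 209 CPM in Dup and 479 CPM in C57BL/6, 171 CPM in Inv1 and 145 CPM in G4 hindlimbs, and 162 CPM in Inv1 and 133 CPM in G4 forelimbs. In muscle it was 7.25 CPM in Dup and 17.1 CPM in C57BL/6 (0.424, 0.216 to 0.794).

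Sfrp2, which in mice overlaps in function with Sfrp1, lies on chromosome 3 from 83570243 to 83578238 of mm9 (plus strand, ENSMUSG00000027996). Mesenchyme held 175 CPM in Dup and 254 CPM in C57BL/6, 123 CPM in Inv1 and 124 CPM in G4 hindlimbs, and 125 CPM in Inv1 and 131 CPM in G4 forelimbs. Only the Dup pair was apart by more than a few percent, at 0.691-fold (0.665 to 0.719), against 0.996 (0.961 to 1.03) and 0.952 (0.909 to 0.997) for Inv1 in the hindlimb and forelimb. Within Hox13 cells the Dup ratio was 1.03 (0.938 to 1.14) and within Meis cells 0.896 (0.837 to 0.958), both nearer to 1 than the ratio of all mesenchyme. Inv1 in Hox13 cells was at 1.44 (1.36 to 1.52) in the hindlimb and 1.13 (1.07 to 1.20) in the forelimb. In Meis cells it was at 0.894 (0.824 to 0.970) in the hindlimb and 0.340 (0.254 to 0.449) in the forelimb, in cells of neither gate at 0.792 (0.741 to 0.845) and 0.671 (0.610 to 0.738), and in cells with both gene pairs at 2.01 (1.66 to 2.45) and 1.83 (1.34 to 2.52). The near equality of Inv1 and G4 over all mesenchyme thus held sets of cells on both sides of 1.

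In the finer classes Sfrp2 reached 1033 CPM in Dup and 1157 CPM in C57BL/6 stylopod chondrocyte progenitors. Dup was higher in autopod chondrocyte progenitors, 351 CPM against 184 CPM in C57BL/6 (1.91-fold, 1.62 to 2.26), and in stylopod mesenchyme (1.16-fold, 1.09 to 1.23). It was lower in stylopod chondrocyte progenitors (0.893, 0.821 to 0.971), in zeugopod mesenchyme (0.853, 0.775 to 0.939) and in muscle connective tissue (0.686, 0.523 to 0.902). In DV ectoderm Sfrp2 was 31.3 CPM in Dup and 80.9 CPM in C57BL/6 (0.387, 0.179 to 0.839), 26.6 CPM in Inv1 and 9.02 CPM in G4 hindlimbs (2.94-fold, 1.25 to 8.01), and 12.3 CPM in Inv1 and 15.0 CPM in G4 forelimbs (0.818, 0.208 to 3.81). The 16 mesenchyme markers in DV ectoderm moved the same way in the Dup pair, with sums of 424 CPM in Dup and 998 CPM in C57BL/6, or 17.1% and 37.2% of their mesenchyme level. They were at 374 CPM in Inv1 and 344 CPM in G4 hindlimbs, and 508 CPM in Inv1 and 647 CPM in G4 forelimbs. Their part in the Sfrp2 values of this class was not tested.

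Frzb (chromosome 2, 80252127 to 80287782 of mm9, minus strand, ENSMUSG00000027004) was 60.0 CPM in Dup and 74.7 CPM in C57BL/6 mesenchyme, 39.1 CPM in Inv1 and 49.1 CPM in G4 hindlimbs, and 17.9 CPM in Inv1 and 51.1 CPM in G4 forelimbs. The Inv1 forelimb was the lowest library, at 0.351-fold of G4 (0.318 to 0.386), while the Inv1 hindlimb was at 0.796 (0.750 to 0.844) and Dup at 0.804 (0.750 to 0.862). Within Hox13 cells the ratios were 0.341 (0.301 to 0.387) for the Inv1 forelimb, 0.648 for the Inv1 hindlimb and 0.694 for Dup. Within Meis cells they were 0.506 (0.337 to 0.745), 1.20 and 0.847 in the same order. In cells of neither gate they were 0.422 (0.354 to 0.502), 1.01 (0.903 to 1.12) and 0.726. In cells with both gene pairs they were 0.263 (0.117 to 0.538), 0.663 and 0.763. The 5 chondrogenic genes Sox9, Col2a1, Sox5, Sox6 and Col9a1 summed to 564 CPM in Inv1 and 901 CPM in G4 forelimb mesenchyme, 413 CPM in Inv1 and 429 CPM in G4 hindlimb mesenchyme, and 421 CPM in Dup and 697 CPM in C57BL/6, and their part in the Frzb values was not tested. In the finer classes of Dup, Frzb was lower in autopod mesenchyme, 50.5 CPM against 79.7 CPM in C57BL/6 (0.633, 0.547 to 0.734), and in zeugopod mesenchyme, 51.3 CPM against 77.0 CPM (0.665, 0.585 to 0.757), and its interval included 1 in the other 4.

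**Figure D4:**
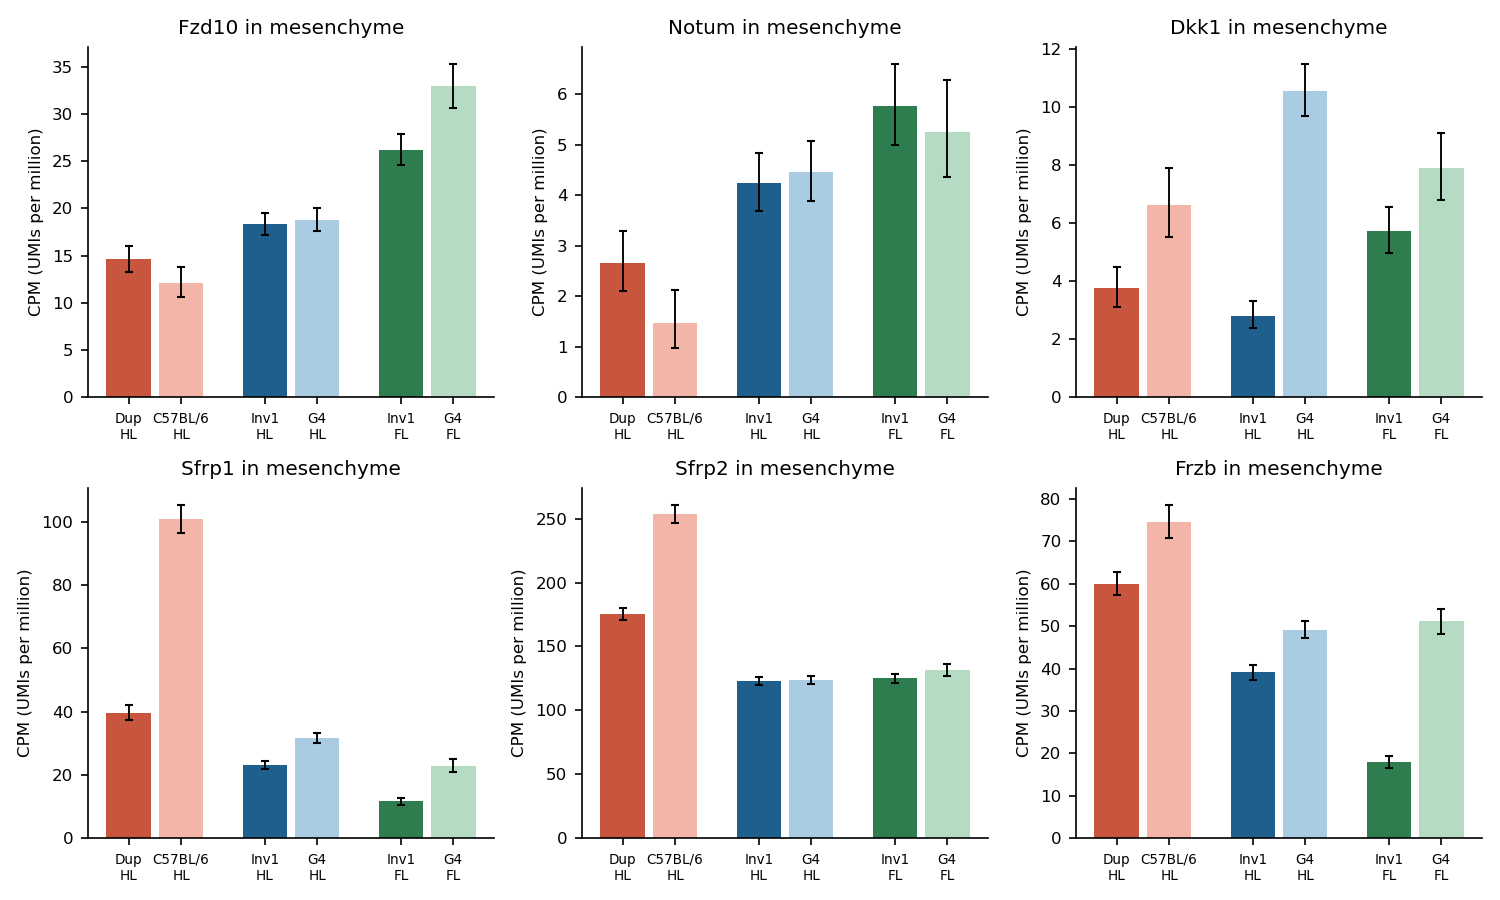
Levels of the members in mesenchyme (y axis, CPM) in each library (x axis; HL, hindlimb; FL, forelimb), with bars for the summed level and lines for the 95% Poisson interval. Dkk1 was lowest in the Inv1 hindlimb at 2.82 CPM, Frzb in the Inv1 forelimb at 17.9 CPM, and Sfrp1 and Sfrp2 were highest in C57BL/6 at 101 and 254 CPM.

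The counts of members were set against all genes of the same comparison, with a ratio of 2-fold or more in either direction called among genes with 20 or more UMIs over the pair. This filter can let a gene in through the library where it is high. In AER cells of the Inv1 hindlimb 3 members were measured, with Fzd10 called higher (5.67% of all measured genes were) and Dkk1 lower (2.73% were). In the forelimb AER Fzd10 and Notum were called higher (background 6.64%) and Dkk1 lower (10.5%), also of 3 measured. Nothing is read from these, since the contrast chose the members. In Dup AER cells 0 of 3 measured members were higher (5.11%) and 1, Sfrp2, was lower (5.18%). Fzd10, with 3 UMIs in Dup and 12 in C57BL/6, fell short of 20 UMIs, so its ratio of 0.314 took no part in these calls.

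In mesenchyme all 6 members were measured in each pair, and 1 was called in each, always lower. It was Sfrp1 in Dup (background 2.35% lower and 1.03% higher), Dkk1 in the Inv1 hindlimb (0.918% lower and 1.13% higher) and Frzb in the Inv1 forelimb (2.33% lower and 0.765% higher). In the Inv1 forelimb the median gene stood at -0.18 on the log2 scale in mesenchyme and in DV ectoderm, and at -0.21 in muscle, so part of each ratio there is shared by most genes. In DV ectoderm Fzd10, Sfrp1 and Sfrp2 were called higher in the Inv1 hindlimb, 3 of 4 measured (2.51% higher, 1.47% lower), Sfrp1 was called higher and Sfrp2 lower in Dup of 2 measured (3.68% higher, 5.14% lower), where the mesenchyme markers summed to 424 CPM in Dup and 998 CPM in C57BL/6, and 0 of 1 was called in the Inv1 forelimb (2.26% higher, 7.46% lower). In muscle Sfrp1 and Frzb were called lower in Dup, of 4 measured (2.08% lower, 1.31% higher), Notum lower in the Inv1 hindlimb, of 5 (0.861% lower, 1.89% higher), and 0 of 3 in the Inv1 forelimb (5.42% lower, 1.79% higher).

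**Figure D5:**
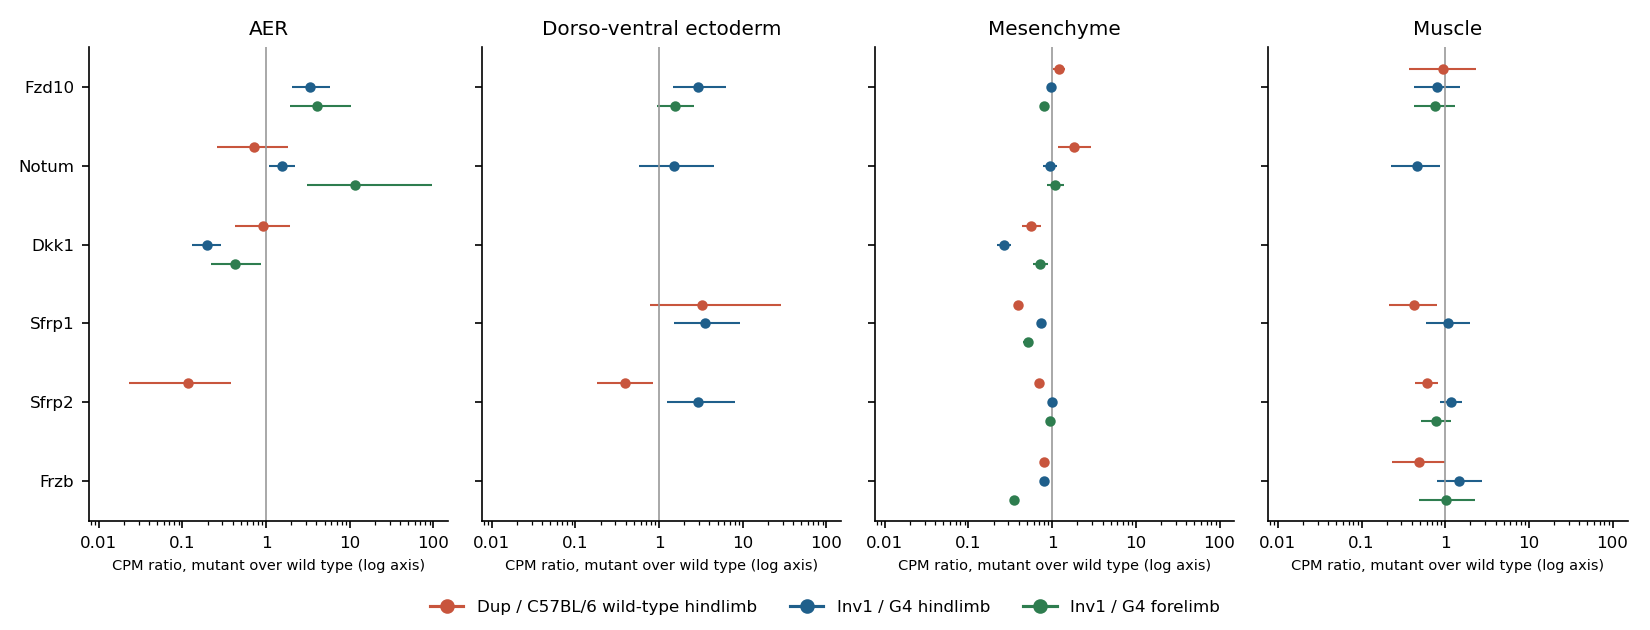
CPM ratio of mutant to its wild type (x axis, log scale) for members (y axis) with 20 or more UMIs over a pair, in panels for AER, DV ectoderm, mesenchyme and muscle, with points for the ratio and lines for the 95% conditional interval, coloured by pair. For Inv1, Fzd10 lay above 1 in AER cells of hindlimb and forelimb, at 3.38 and 4.05, and at 0.978 and 0.796 in mesenchyme. Dkk1 of Inv1 lay under 1 in both classes and both limbs.

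Of 32 other genes of Wnt reception and its antagonists, 27 had a row in both matrices and 6 to 24 were measured per pair and class. In AER cells of the Inv1 hindlimb 0 of 14 measured were past 2-fold (5.67% of all genes higher, 2.73% lower), and their median log2 ratio was 0.26, against -0.01 over all genes. The co-receptors through which Dkk1 acts were among them, with Kremen2 at 1.43 (0.919 to 2.31), Kremen1 at 1.10 (0.727 to 1.71) and Lrp6 at 0.851 (0.489 to 1.53), each with an interval that includes 1. In the Inv1 forelimb AER 3 of 13 were higher (6.64% of all genes) and 2 lower (10.5%), at a median of -0.48, against -0.09 over all genes. Kremen2 was higher there, 53 UMIs in Inv1 and 3 in G4 (3.31-fold, 1.07 to 16.6), and Fzd1, another Wnt receptor, was lower (0.417, 0.278 to 0.636), as was Lrp6 (0.469, 0.246 to 0.944). Ror2 and Wif1, a Wnt receptor and a secreted inhibitor, were also past 2-fold but from 21 and 19 UMIs in Inv1 against 1 each in G4, with intervals that include 1. In Dup AER cells 1 of 6 was past 2-fold and higher (5.11% of all genes), Lrp6 at 2.36 (0.938 to 6.42).

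In mesenchyme 2 of 23 of these genes were called in Dup, both lower (2.35% of all genes lower, 1.03% higher): Fzd8 at 0.484 (0.388 to 0.602) and Ror1 at 0.475 (0.374 to 0.603), at a list median of -0.32, against -0.10 over all genes. Neither Inv1 limb had a call, among 24 in the hindlimb (median 0.08, against 0.05 over all genes; 0.918% lower, 1.13% higher) and 23 in the forelimb (median -0.40, against -0.18; 2.33% lower, 0.765% higher).

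In DV ectoderm 1 of 15 was called in the Inv1 hindlimb (2.51% of all genes higher, 1.47% lower), the secreted antagonist Sostdc1, higher at 2.42-fold (1.69 to 3.55). In Dup 2 of 8 were called, both higher (3.68% higher, 5.14% lower), Sostdc1 at 2.97-fold and Kremen2 from 43 UMIs in Dup and 1 in C57BL/6. In the Inv1 forelimb 1 of 13 was called, Lrp6, lower at 0.482 (7.46% lower, 2.26% higher). In muscle of the Inv1 hindlimb 1 of 17 was higher (1.89%), Fzd9 at 3.18-fold, and 2 were lower (0.861%), Ror2 at 0.263 and Dkk2 at 0.274. In muscle of the Inv1 forelimb 1 of 18 was higher (1.79%), Fzd9 at 6.72-fold, and 2 were lower (5.42%), Fzd8 at 0.437 and Ror1 at 0.303. In Dup muscle 0 of 15 were called (1.31% higher, 2.08% lower).

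The wild types themselves differed. In AER cells G4 over C57BL/6 hindlimb was 2.14 for Notum and 3.11 for Dkk1, both called higher (background 5.66%), and Sfrp2 was called lower (8.13%), of 4 measured, with Fzd10 at 1.10. In mesenchyme Notum was called higher at 3.04 (3.53%) and Sfrp1 at 0.315 and Sfrp2 at 0.487 lower (4.15%), of 6 measured. G4 and C57BL/6 libraries differ in strain and lie in different matrices, which cannot be told apart, and the median gene stood at -0.11 in AER cells and -0.12 in mesenchyme on the log2 scale. These comparisons share their wild types with the mutant pairs. In G4 mesenchyme, the forelimb over hindlimb ratio was 1.75 (1.59 to 1.93) for Fzd10, 0.748 (0.629 to 0.886) for Dkk1 and 0.722 (0.654 to 0.797) for Sfrp1, where the median gene stood at 0.39 on the log2 scale.

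Genes whose levels ran most like each member were named over 24 values, the 4 main classes in 6 libraries, by Pearson correlation of log2(CPM + 10) among 4880 genes. The values share libraries, classes and depth, so the correlations are descriptions. For Fzd10 they were Ext2, Wnt10a, Ctnnb1 and Ulk4 (0.90 each) and Fzd7 (0.89). For Notum they included Ssr4 (0.95), Wnt10b (0.94) and Dlx6 (0.93). Dkk1 ran most like Cdh6 (0.97), Slc39a14 (0.96) and Rspo2 (0.96), the last an AER-expressed Wnt agonist. For Sfrp2 they were Pdgfrb (0.95), Vcam1, Fibin, Twist2 and Lix1, for Frzb they included Selm (0.91), Il11ra1 (0.89) and Shox2 (0.88), and for Sfrp1 the highest was Cxcl12 at 0.80.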

How the data were processed

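Droplet single-cell RNA-seq (10x Chromium 3′ v2) was made from limb buds dissociated with trypsin, in 6 libraries, 1 per group, with groups by limb, genotype and strain as the labels give them. The authors deposited UMI counts, not normalised, from Cell Ranger 3 and a custom reference of build mm9, while mm10 is also listed in the processing notes of the submitters. Which annotation was counted is not stated in the sources used here. The authors removed doublets with Scrublet, integrated the libraries with Seurat and named the cell classes used here. The matrices hold 0 mitochondrial rows, so the authors' limit on those was taken as it stood, and no further doublets were called.

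Cells with more than 2000 detected genes were kept. UMIs were summed per library and class and scaled to CPM over the 15668 genes of both matrices, of which 14544 had a symbol. Levels have exact Poisson, shares exact Clopper-Pearson and ratios exact conditional binomial intervals at 95%, for counting error only. Where a library had 0 UMIs a floor of 3 counts was used. Calls took a ratio of 2-fold or more among genes with 20 or more UMIs over a pair, after 0.5 counts were added. A joint fit of Inv1 over both limbs was not run. Shares were repeated after thinning to 4000 UMIs. Libraries held 22.7 to 59.4 M UMIs. Scripts were tested on simulated data (Python 3.11.15, numpy 2.4.6, scipy 1.17.1, pandas 2.3.3, matplotlib 3.10.9).

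Members and lists were chosen with earlier results of these data known. The genes named were the 6 members, genes of the Wnt list past 2-fold in the class described, and the 5 genes most like each member among those with 50 or more CPM in 2 or more values. The Kremen and Lrp6 ratios of the Inv1 hindlimb AER and the Fzd10 values in endothelium and keratinocytes were picked out after their values were seen, as were the Hox13 and Meis gates and the chondrogenic list. The same holds for the Fgf8 and Btrc values in keratinocytes. The sum over a further marker list is not reported here. Alternatives were other limits on detected genes, a mean of per-cell CPM, scaling by the median of ratios, totals of the own matrix, the authors' annotation of hindlimb cells alone, other ways to take AER cells, and other call rules. Of the per-cell columns in the deposited annotation, 13 were not used.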

Additional observations from a re-analysis of the deposited data

How the results depend on the processing

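Of the values tried under alternatives, 73 that answer a comparison and 275 others stayed within the counting interval (counts of genes within 1.5 times), 31 and 41 moved further, and 1 value past 2-fold changed direction. With cells of over 3000 detected genes, which left 19 Inv1 and 5 G4 hindlimb AER cells, the Inv1 hindlimb AER ratio was 1.77 for Fzd10 and 2.73 for Notum. With AER cells gated on markers it was 2.56 for Notum and 0.339 for Dkk1, and 0.897 for Dkk1 in the forelimb. With AER and DV ectoderm pooled it was 0.296 for Dkk1 in the hindlimb and 0.885 in the forelimb. The cells taken differ between these settings, and the cause was not tested. With the authors' annotation of hindlimb cells alone, Sfrp2 in the Inv1 hindlimb AER was 0.915 (7 UMIs in Inv1 and 3 in G4) in place of 2.03 (5 and 1). In mesenchyme, Hox13 cells gave 0.566 for Sfrp1 in Dup, Meis cells gave 0.614 for Sfrp1 in Dup, 0.601 and 0.354 for Dkk1 in the Inv1 hindlimb and forelimb and 0.506 for Frzb in the Inv1 forelimb, and median-of-ratios scaling gave 0.396 for the last. Of members under 2-fold, Fzd10 in Inv1 forelimb mesenchyme was 0.796 in all and 4.21 in Meis cells (17 and 5 UMIs), Notum was 1.10 and 2.48 (6 and 3 UMIs), and Sfrp2 was 0.952 and 0.340, with 1 of its 7 alternatives inside the counting interval. Notum in Dup AER cells was 0.719, and 2.72 with cells of over 3000 detected genes (3 UMIs in 2 Dup and 8 in 7 C57BL/6 cells). Hox13 cells gave 1.28 for Sfrp1 and Meis cells 1.20 for Frzb in the Inv1 hindlimb.

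Genes past 2-fold in AER cells numbered 292 for Dup, 471 for the Inv1 hindlimb and 618 for the Inv1 forelimb, and in mesenchyme 462, 297 and 437. With a minimum of 10 UMIs these counts were 805, 1020 and 1530, and 772, 539 and 680, and with 50 UMIs 64, 91 and 134, and 205, 158 and 243. Past 1.5-fold they were 819, 1444 and 1435, and 1513, 1021 and 2269. Share of AER cells with a UMI fell in all thinned sets except Notum in the G4 forelimb, at 20%.

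No paired analysis was possible because the groups of each pair share 1 replicate number only. Limb could serve as a block for Inv1 against G4, and that fit was left out. The counting intervals leave out the spread between embryos, which 1 library per group cannot show. Depth limits the AER values: the G4 forelimb AER held 10 cells, where a floor of 3 counts is 41.3 CPM, and the C57BL/6 AER held 16.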
